A study of Mus musculus with 10 samples.

Results

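The BCL2 family decides at the mitochondrial outer membrane whether a cell survives or enters apoptosis, and 10 of its genes were followed here through every sample of a mouse *Rnf20* knockout study. They were taken by gene symbol and comprised 4 pro-survival genes (*Bcl2*, *Bcl2l1*, *Bcl2l2*, *Mcl1*), 3 effector genes (*Bax*, *Bak1*, *Bok*) and 3 BH3-only genes (*Bid*, *Bbc3*, *Bcl2l11*). All 10 were found among the 17816 genes of the day 7 table and among the 20007 genes of the adult table, and all 10 passed the filter on low values in both. In the adult table *Bcl2* passed it only through the samples labelled knockout, since it lay under 0.5 FPKM in every sample labelled wild type. RNF20 is an E3 ubiquitin ligase for histone H2B. Its gene was removed by Cre recombinase under the *Amh* promoter, which is active in Sertoli cells, the somatic cells that nurse germ cells inside the seminiferous tubules. The day 7 samples were Sertoli cells of untreated *Rnf20* Flox/Flox mice (2 samples, which the labels call wild type) and *Amh-Rnf20*-/- mice (2 samples) at 7 days after birth. Both of these groups carry the floxed alleles, as far as the study's text places them, and only the second carries the Cre transgene. The adult samples carry the label testis tissue of untreated mice, 3 labelled wild type and 3 labelled *Rnf20* conditional knockout, with no age in days and no allele named. The study's text does not describe sequencing of adult testis, so these groups were taken from the labels. The study describes isolating Sertoli cells and culturing them over passages, which can leave other testis cells in the culture, and testis tissue mixes germ cells with all somatic cells, so a level is an average over such a mixture. The study's methods speak of individuals for the day 7 groups, and no label says whether the adult samples came from separate animals, so the adult p-values measure only the spread between these samples. The question put to each table was whether the balance between death-promoting and survival-promoting transcripts differed between the genotypes.

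The effectors BAX and BAK1 can assemble in the outer membrane of mitochondria and let cytochrome c out, after which caspases are activated. BOK is related to both but is regulated differently and is largely found at the endoplasmic reticulum. The pro-survival proteins BCL2, BCL-XL (from *Bcl2l1*), BCL-W (from *Bcl2l2*) and MCL1 hold the effectors and their activators in check. BH3-only proteins respond to stress: BID couples death receptors to mitochondria after cleavage by a caspase, PUMA (from *Bbc3*) is a target of p53, and BIM (from *Bcl2l11*) responds to loss of growth factors and is a target of FOXO factors. In mouse testis the family is needed for fertility, since loss of *Bax* blocks the early wave of germ cell death and loss of *Bcl2l2* leads to sterility. Much of the control of the family is exerted on the proteins, through binding, cleavage and turnover, which transcript levels do not show.

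Promoter windows from RefSeq on GRCm38.p6, which run from 250 bases before a start of transcription to 50 after it, are shown for 1 member of each role that was more than 3-fold higher in the adult samples labelled knockout and for *Bcl2l1*, the 1 member that was lower. Each window is written 5′ to 3′ on the strand of the gene. Capitals mark matches, on either strand, to the GC box GGGCGG, the CCAAT box CCAAT, the E-box CACGTG, the FOXO element GTAAACA and the p53 half-site. The windows lie at chr1:106714241-106714540 (minus strand) for *Bcl2*, chr7:45466849-45467148 (minus strand) for *Bax*, chr2:128125788-128126087 (plus strand) for *Bcl2l11* and chr2:152831679-152831978 (minus strand) for *Bcl2l1*. For *Bcl2l1* the most upstream of 3 listed starts was taken. The 5′ end of the gene as annotated, at 152833803, lies outside all 3 windows.
Bcl2: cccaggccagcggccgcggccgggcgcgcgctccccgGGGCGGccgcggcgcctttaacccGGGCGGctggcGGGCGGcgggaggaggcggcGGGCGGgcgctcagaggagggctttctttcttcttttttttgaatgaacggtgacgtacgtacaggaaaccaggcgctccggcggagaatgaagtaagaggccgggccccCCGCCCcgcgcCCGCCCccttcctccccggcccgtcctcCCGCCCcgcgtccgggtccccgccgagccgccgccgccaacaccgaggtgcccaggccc
Bax: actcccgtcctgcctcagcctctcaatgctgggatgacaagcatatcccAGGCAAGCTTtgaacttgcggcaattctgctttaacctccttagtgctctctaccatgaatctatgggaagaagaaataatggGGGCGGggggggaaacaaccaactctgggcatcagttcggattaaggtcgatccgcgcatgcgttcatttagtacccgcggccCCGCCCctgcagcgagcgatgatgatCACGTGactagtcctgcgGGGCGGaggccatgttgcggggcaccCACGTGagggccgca
Bcl2l11: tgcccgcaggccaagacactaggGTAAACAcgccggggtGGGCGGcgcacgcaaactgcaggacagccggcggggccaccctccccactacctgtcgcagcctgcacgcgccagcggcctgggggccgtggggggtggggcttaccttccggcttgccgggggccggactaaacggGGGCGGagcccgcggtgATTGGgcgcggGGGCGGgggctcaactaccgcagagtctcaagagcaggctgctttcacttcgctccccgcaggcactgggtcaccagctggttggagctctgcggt
Bcl2l1: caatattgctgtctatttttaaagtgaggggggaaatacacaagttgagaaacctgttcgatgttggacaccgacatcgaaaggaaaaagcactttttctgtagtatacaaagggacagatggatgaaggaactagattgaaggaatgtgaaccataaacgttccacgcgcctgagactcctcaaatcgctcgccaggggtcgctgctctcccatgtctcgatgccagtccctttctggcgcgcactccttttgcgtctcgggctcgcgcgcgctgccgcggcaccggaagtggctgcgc

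The windows differ in composition. The *Bcl2* window is 76% G and C and holds 7 GC boxes, and that of *Bcl2l11* is 71% G and C with 3 GC boxes. The *Bcl2l1* window shown is 52.3% G and C, close to the median of 52.7% over all promoters, and none of the elements searched was found in any of its 3 windows. The 5′ end of *Bcl2l1* as annotated is not among them and was not searched. A GC box, the element bound by SP1-type factors, was present in 35.7% of all 32851 promoter windows and in 11 of the 15 windows of the 10 genes. The E-box stood in 7.15% of all windows and in 2 of the 15, which belong to *Bax* and *Bbc3*. The FOXO element stood in 3.65% of all windows and in 2 of the 15, which belong to *Bcl2l11* and *Bbc3*. The p53 half-site, which *Bax* alone of the 10 genes held, stood in 8.36% of all windows. A TATA box (TATAAA, in 13.6% of all windows) and a cAMP response element (TGACGTCA, in 1.79%) were found in 0 of the 15. The CCAAT box, in 37.4% of all windows, occurred in 3 of the 15, which belong to *Bcl2l11* and *Bbc3*. Matches of the GC box were counted also where they overlap one another, and a match describes these letters only.

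Between 15431912 and 17705347 estimated counts were assigned to genes in each sample. The targeted gene was checked first. At day 7, *Rnf20* stood at 16.64 and 16.01 FPKM in *Rnf20* Flox/Flox cells and at 10.25 and 12.58 in *Amh-Rnf20*-/- cells, with a log2FC of −0.49 (SE 0.12, edgeR adjusted p = 0.222). FPKM are fragment counts corrected for transcript length and library size, so that levels of different genes can be set side by side, and log2FC is the fitted difference, knockout over control, on the log2 scale with its standard error (SE). In adult testis *Rnf20* was not lower: FPKM values were 4.89, 3.32 and 4.09 in the samples labelled wild type and 9.16, 5.76 and 9.85 in those labelled knockout, with a log2FC of 0.12 (SE 0.27, adjusted p = 0.688). Counts over the whole gene cannot tell transcripts that lack the floxed exons from full ones, and every adult direction is given by the label. Markers of spermatids, whose sums are given with the adult values, were lower in all 3 samples labelled knockout. All 12 Sertoli cell markers were detected at day 7, with a summed FPKM of 2406 to 2600 in *Rnf20* Flox/Flox and 1793 to 1989 in *Amh-Rnf20*-/- samples. *Clu* (mean FPKM 910 against 698) and *Ctsl* (933 against 806) made up most of these sums, which say little of the other markers. *Rhox5* lay at only 0.22 to 0.64. The 8 spermatogonium markers lay lower in the *Amh-Rnf20*-/- samples (summed FPKM 139 to 145 against 201 to 209), and the 6 peritubular myoid markers lay higher (3553 to 3604 against 1911 to 2030), as did the 5 fibroblast markers (2177 to 2660 against 1398 to 1436). The part of these cells in the day 7 values of the family was not tested.

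In Sertoli cells at day 7 the effectors were the most abundant of the 3 roles. In the *Rnf20* Flox/Flox samples *Bax* led with a mean FPKM of 162 ± 5.24 (SD, n = 2), followed by *Bok* at 99.4 ± 6.30, *Mcl1* at 75.9 ± 1.41, *Bak1* at 67.7 ± 2.93, *Bcl2l1* at 59.4 ± 0.622 and *Bcl2l2* at 35.1 ± 0.573. The BH3-only genes *Bid* (9.47 and 10.53 in its samples) and *Bbc3* (6.70 ± 0.354) followed, and *Bcl2* (3.11 ± 0.0354) and *Bcl2l11* (3.02 ± 0.156) were lowest and overlapped each other, while all other neighbours in this order were separated in both samples. *Bcl2*, the gene that names the family, thus supplied 1.79% of the pro-survival FPKM, against 43.8% from *Mcl1* and 34.2% from *Bcl2l1*. In the *Amh-Rnf20*-/- samples *Bax* was again highest (166 ± 15.1), and *Mcl1*, *Bok* and *Bak1* each overlapped the next in the order, as did *Bcl2* and *Bcl2l11*.

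**Figure D1:**
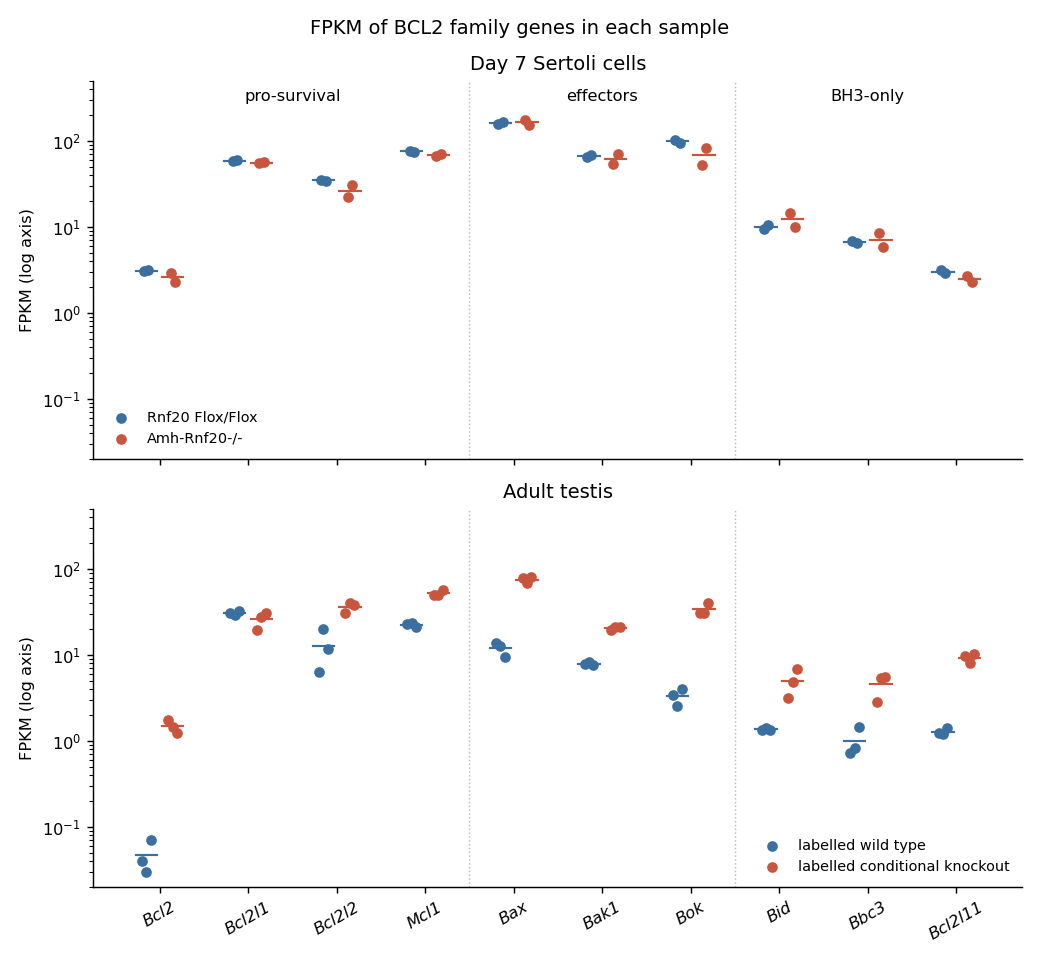
FPKM (log axis) of the 10 BCL2 family genes in each sample, day 7 Sertoli cells above and adult testis below. Points are samples, horizontal bars are group means, blue marks the control group and red the knockout group. At day 7 the groups sit within a factor of 2 of each other for every gene, whereas in adult testis *Bcl2* lies at 0.03 to 0.07 in the samples labelled wild type and at 1.24 to 1.76 in those labelled knockout.

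None of the 10 genes passed an adjusted p of 0.05 at day 7, 0 higher and 0 lower, and neither did any of the 12880 genes tested (0% higher and 0% lower; edgeR). With no adjustment, p was under 0.05 for 1 member, *Bcl2l2*, against 1997 of all genes. DESeq2 called 0 members, with 388 of all genes higher and 193 lower, and limma called 0 members and 0 genes. In 6 of the 10 genes the *Amh-Rnf20*-/- samples were both under the lower *Rnf20* Flox/Flox sample on TMM-scaled counts, where 26.1% of all genes did so, and 0 lay above, where 24.8% did. TMM scaling, a trimmed mean of ratios, sets libraries to a common scale on the bulk of their genes. The median log2FC of the 10 genes was −0.09, against −0.0039 over all genes.

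All 4 pro-survival genes lay lower at day 7, by small amounts. *Bcl2l2* (Entrez 12050, chromosome 14, 54883366 to 54890858 on GRCm38.p6) had FPKM of 35.50 and 34.69 in *Rnf20* Flox/Flox and of 22.11 and 30.85 in *Amh-Rnf20*-/- cells. The first *Amh-Rnf20*-/- sample was the lowest, and the groups did not overlap. Its log2FC was −0.41 (SE 0.15, unadjusted p = 0.0450, adjusted p = 0.310). *Bcl2* (Entrez 12043, chromosome 1, 106538176 to 106714290) had FPKM of 3.08 and 3.13 against 2.88 and 2.30, a log2FC of −0.23 (SE 0.11, adjusted p = 0.405). For *Mcl1* (Entrez 17210, chromosome 3, 95656944 to 95663179), whose short-lived protein makes its level sensitive to new transcription, the values were 76.90 and 74.91 against 67.59 and 70.71. Those of *Bcl2l1* (Entrez 12048, chromosome 2, 152758732 to 152833803) were 58.92 and 59.80 against 55.51 and 56.35. The log2FC values of these abundant genes were −0.09 (SE 0.07) and −0.05 (SE 0.07), each of about the size of its standard error.

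Among the effectors, *Bok* showed the widest separation. *Bok* (Entrez 51800, chromosome 1, 93685575 to 93695770) had FPKM of 103.86 and 94.95 in *Rnf20* Flox/Flox and of 52.50 and 83.67 in *Amh-Rnf20*-/- cells. Both *Amh-Rnf20*-/- samples were below the others, and they differed more from each other than the second did from the controls; the log2FC was −0.51 (SE 0.23, adjusted p = 0.385). *Bax* (Entrez 12028, chromosome 7, 45461695 to 45466903) overlapped, with values of 158.51 and 165.92 against 177.13 and 155.75 and a log2FC of 0.08 (SE 0.10, adjusted p = 0.761). *Bak1* (Entrez 12018, chromosome 17, 27019812 to 27028627) overlapped as well, at 65.60 and 69.75 against 54.04 and 70.98 (log2FC −0.08, SE 0.15).

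The BH3-only genes split. *Bid* (Entrez 12122, chromosome 6, 120893119 to 120917062) had FPKM of 9.47 and 10.53 against 14.63 and 10.05, a log2FC of 0.35 (SE 0.22, adjusted p = 0.503). *Bbc3* (Entrez 170770, chromosome 7, 16308398 to 16318334) had FPKM of 6.95 and 6.45 against 8.43 and 5.83, a log2FC of 0.17 (SE 0.23). In both of these genes the first *Amh-Rnf20*-/- sample was the highest of the 4 and the second lay within or below the controls. *Bcl2l11* (Entrez 12125, chromosome 2, 128126038 to 128162547) had FPKM of 3.13 and 2.91 against 2.70 and 2.26, with a log2FC of −0.23 (SE 0.16, adjusted p = 0.558).

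Most of these differences were larger in the first *Amh-Rnf20*-/- sample than in the second. Without the second *Amh-Rnf20*-/- sample, edgeR called 6 members, *Bax* (0.18), *Bid* (0.60) and *Bbc3* (0.42) higher and *Bcl2l2* (−0.62), *Bak1* (−0.28) and *Bok* (−0.87) lower on the log2 scale. Without the first, it called *Bcl2l2* alone (−0.23, adjusted p = 0.0293), and *Bax* (−0.03), *Bak1* (0.10) and *Bbc3* (−0.13) changed sign, while *Bok* moved to −0.22 and *Bid* to 0.052. In these fits the lone knockout sample is assumed to vary like the *Rnf20* Flox/Flox pair, which are closer to each other, and over all genes 2711 and 1255 were then called higher and 2425 and 1502 lower. The sums of marker genes in the first *Amh-Rnf20*-/- sample, at 1793 for Sertoli cells, 301 for Leydig cells and 2660 for fibroblasts, were farther from the controls than those of the second, at 1989, 205 and 2177. For spermatogonia (145 in the first and 139 in the second) and peritubular myoid cells (3553 and 3604) the second was the farther. The part of these cells in the difference was not tested.

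In adult testis the levels had another order. In the samples labelled wild type the pro-survival genes led: *Bcl2l1* at a mean FPKM of 30.7 ± 1.72 (SD, n = 3), *Mcl1* at 22.7 ± 1.11 and *Bcl2l2* at 12.8 ± 7.08, ahead of *Bax* at 12.04 ± 2.30, *Bak1* at 7.94 ± 0.366 and *Bok* at 3.37 ± 0.740. *Bid* (1.38 ± 0.0379), *Bcl2l11* (1.29 ± 0.1002) and *Bbc3* (1.01 ± 0.405) overlapped one another, and *Bcl2* was lowest at 0.0467 ± 0.0208. *Bcl2l2* and *Bax* also overlapped. In the samples labelled knockout *Bax* led at 75.6 ± 6.25, then *Mcl1* at 52.6 ± 4.57, and *Bcl2l2* (36.4 ± 4.83), *Bok* (34.1 ± 5.22), *Bcl2l1* (26.1 ± 5.98) and *Bak1* (20.7 ± 0.855) followed, neighbours in this run of 4 overlapping each other. *Bcl2l11* at 9.37 ± 1.13 lay below them without overlap.

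Markers of cell types differed widely between the adult groups. The 8 spermatid markers summed to 122587 to 191191 FPKM in the samples labelled wild type and to 3.58 to 82.8 in those labelled knockout, and 8 of 8 were called lower. The 8 spermatocyte markers summed to 5013 to 5256 against 1.27 to 362, with 6 called lower and 0 higher. Spermatogonium markers overlapped in sum (259 to 290 against 48.1 to 440), and of 7 tested 2 were called higher, 2 lower and 3 not. *Zbtb16*, called higher, passed the filter only through the samples labelled knockout. Markers of Leydig cells (3997 to 5602 against 63070 to 87434), Sertoli cells (814 to 1017 against 2447 to 8359), macrophages (20.9 to 25.9 against 543 to 733) and fibroblasts (38.4 to 50.7 against 1231 to 3287) were higher in sum in the samples labelled knockout. All 6 Leydig cell, 6 macrophage and 5 fibroblast markers were called higher. Of the macrophage markers, *Cd163* (0.26, 0.23 and 0.09 FPKM in the samples labelled wild type) passed the filter only through the samples labelled knockout. Of the 12 Sertoli cell markers 5 were called higher, 1 (*Rhox5*, log2FC −5.57) lower and 6 were not called, and *Clu* (mean FPKM 495 against 3740) and *Ctsl* (205 against 1441) made up most of the sum. The peritubular myoid sums overlapped (293 to 366 against 191 to 395), with 4 of 6 markers called higher and 1 lower. The first of these samples stood apart from the other two, with the lowest spermatocyte (1.27), spermatogonium (48.1) and Sertoli cell (2447) sums of the 3 and the highest fibroblast sum (3287). Fewer cells of a type and less RNA per cell cannot be told apart in bulk tissue, and the part of these cells in the values of the family was not tested.

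After TMM scaling, 8 of the 9 members that reached 0.5 FPKM in both adult groups were called higher in the samples labelled knockout and 1 lower (edgeR's quasi-likelihood test, adjusted p under 0.05). Among the 13515 genes that reached this level in both groups, 37.8% were called higher and 41.0% lower, and among all 15919 genes tested 40.9% and 40.6%. *Bcl2* was called higher too, but it entered the test only through the group in which it was high and is not counted here. The 8 genes lay above every sample labelled wild type in all 3 samples labelled knockout, as 42.4% of all genes tested did, and *Bcl2l1* lay below, as 43.1% did. The median log2FC was 0.99 for these 9 members and −0.093 for the 13515 genes.

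At the thresholds the study's methods name, more than 1 log2 unit of change at an FDR under 0.001, *Bax*, *Bok* and *Bcl2l11* were higher, and *Bcl2* with the same limit, against 23% of all genes. *Bcl2l1* was the only member with a log2FC below −1, and its adjusted p of 0.00081 put it also past these thresholds on the lower side, with 23.7% of all genes. Of these calls, those of *Bok* and *Bcl2l11* held whichever adult sample was left out. Those of *Bax* and *Bcl2* held only without the first sample labelled knockout, and that of *Bcl2l1* was lost whichever sample was left out, with a log2FC of −0.92 without that first sample and an adjusted p of 0.00435 to 0.00508 without 1 of the others. Over all genes, 3661 passed on the higher and 3773 on the lower side, 1083 to 2737 and 1612 to 1951 without 1 of the other samples, and 5270 and 5031 without the first labelled knockout. With a replicate block 0 genes and 0 members passed.

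*Bcl2l1*, the most abundant pro-survival gene of the control testis, was the member that fell. Its FPKM values were 30.73, 28.91 and 32.35 in the samples labelled wild type and 19.50, 27.58 and 31.17 in those labelled knockout. On FPKM, which is relative to total output, the groups overlapped, with only the first sample labelled knockout far below. On TMM-scaled counts they did not, and the log2FC was −1.20 (SE 0.17, adjusted p = 0.00081). The call depended on the scale: with total-count scaling the difference was −0.34 (adjusted p = 0.159), where the median of all genes moved to 0.87. Relative to that median *Bcl2l1* was low on both scales. The gene shares 6308 nt with *Cox4i2*, and how strand was handled in counting is not given in the sources used here, so reads from the overlap are uncertain.

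The other pro-survival genes rose. *Bcl2* had FPKM of 0.04, 0.03 and 0.07 in the samples labelled wild type and of 1.76, 1.45 and 1.24 in those labelled knockout. These values rest on 13 estimated counts in all in the first group and 462 in the second, so *Bcl2* was close to the limit of detection in the testes labelled wild type. The ratio of counts per total count was 36.8 (95% exact interval 21.3 to 69.6, counting error only), and the fitted log2FC was 4.33 (SE 0.54, adjusted p = 0.000459), a value that depends on how low counts are moderated. Over the settings that kept all samples, the log2FC ran from 1.24 (limma with a pseudocount of 1) to 5.16 (total-count scaling). The filter admitted *Bcl2* only through the samples labelled knockout, so that it had to differ; with no filter on low values the log2FC was 4.37 (adjusted p = 0.000471).

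*Bcl2l2* had FPKM of 6.29, 20.33 and 11.75 against 30.99, 40.33 and 37.81. The spread among the samples labelled wild type was the widest of the family, and the length implied by count and FPKM ran from 1725 to 3552 nt across the adult samples, against at most 1.11-fold in *Bcl2l1* and the members other than *Bcl2*, so that transcripts of different length enter its FPKM. The log2FC was 0.92 (SE 0.21, adjusted p = 0.00658). *Mcl1* had FPKM of 22.87, 23.64 and 21.46 against 50, 50.01 and 57.92, with no overlap, yet its TMM-scaled difference was the smallest of the family at 0.36 (SE 0.12, adjusted p = 0.0322). The *Mcl1* call was lost with median-ratio scaling (0.16, adjusted p = 0.254), with DESeq2 (adjusted p = 0.232), and without the first or the third sample labelled wild type or the second labelled knockout (adjusted p 0.1004, 0.114 and 0.0596).

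All 3 effector genes rose. *Bax* had FPKM of 13.88, 12.78 and 9.47 in the samples labelled wild type and of 77.99, 68.54 and 80.36 in those labelled knockout. The groups were far apart, with a log2FC of 1.79 (SE 0.19, adjusted p = 0.000246). *Bok* had FPKM of 3.47, 2.58 and 4.05 against 30.93, 31.27 and 40.14, the largest rise among the effectors at 2.48 on the log2 scale (SE 0.19, adjusted p = 8.44e-05). *Bak1* had FPKM of 7.91, 8.32 and 7.59 against 19.74, 21.08 and 21.33, which is tight within each group, and a TMM-scaled difference of 0.52 (SE 0.12, adjusted p = 0.00674). The whole of *Bak1*, 8816 nt, lies within *Ggnbp1*, with the same uncertainty over strand.

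The BH3-only genes rose as well. *Bcl2l11* had FPKM of 1.25, 1.21 and 1.40 against 9.64, 8.13 and 10.34, a log2FC of 2.01 (SE 0.15, adjusted p = 7.85e-05), the smallest adjusted p of the 10 genes; its first 215 nt lie within *Acoxl*. *Bbc3* had FPKM of 0.72, 0.83 and 1.47 against 2.83, 5.42 and 5.57, a log2FC of 1.37 (SE 0.39, adjusted p = 0.0171). *Bid* had FPKM of 1.36, 1.42 and 1.35 against 3.19, 4.90 and 6.90, a log2FC of 0.99 (SE 0.31, adjusted p = 0.0231). In *Bbc3* and *Bid* the first sample labelled knockout was the lowest of its group, while in *Bcl2l11* and *Bax* it lay between the others. The call of *Bbc3* was lost without the first or second sample labelled wild type or the second labelled knockout (adjusted p 0.0606, 0.0631 and 0.0575). That of *Bid* was lost without any 1 of the adult samples other than the first labelled knockout (adjusted p between 0.0538 and 0.0731), without which it was 1.33 on the log2 scale.

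**Figure D2:**
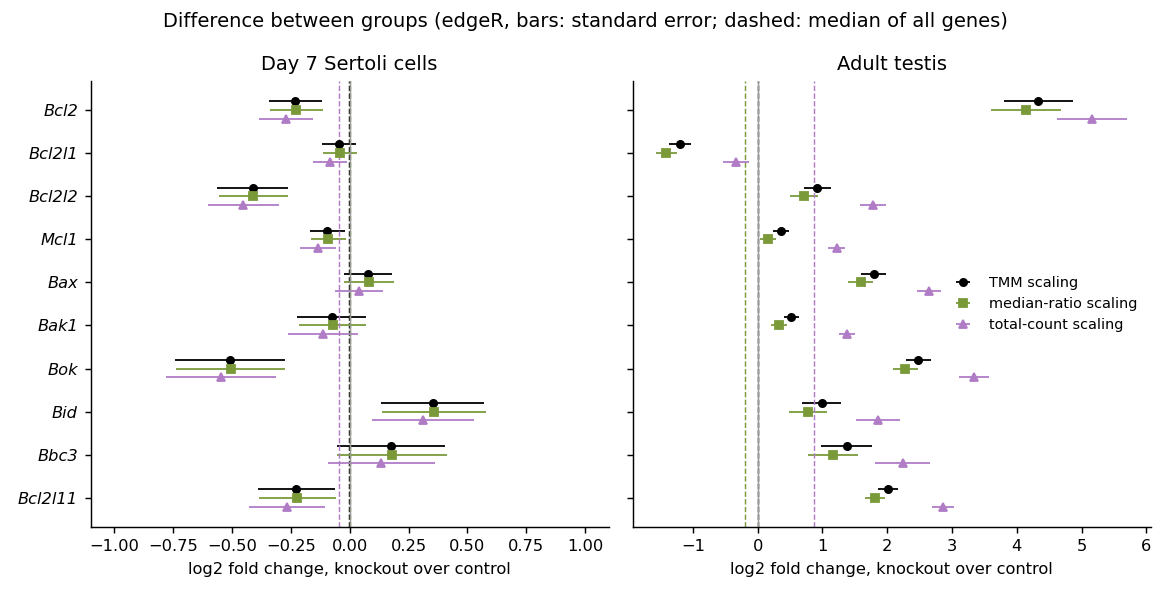
Log2 fold change of each gene, knockout group over control group, from edgeR with TMM, median-ratio or total-count scaling. Points are estimates, bars are standard errors and dashed lines are the median of all genes under the same scaling. The day 7 axis is the narrower, and in adult testis *Bcl2l1* alone lies left of the dashed line of its own scaling, −1.20 against a median of 0.01 with TMM.

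The adult directions held under every scaling tried, and the distance from 0 did not. The median of all genes was 0.87 with total counts, −0.19 with median-ratio scaling and −0.34 when the libraries were scaled to the Sertoli cell markers. Under each of these scalings 8 of the 9 members other than *Bcl2* had a positive difference and *Bcl2l1* a negative one. Scaled to the Sertoli cell markers, *Bcl2*, with the limit on its filter given above, was the only member called, with standard errors of 0.835 to 0.901 for the others, and the sums of these markers ran from 2447 to 8359 among the samples labelled knockout.

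Ratios within a sample do not depend on scaling between samples. The summed FPKM of *Bax*, *Bak1* and *Bok* over that of the 4 pro-survival genes was 1.88 and 1.92 in *Rnf20* Flox/Flox and 1.92 and 1.94 in *Amh-Rnf20*-/- Sertoli cells. The day 7 groups overlapped. In adult testis the ratio was 0.421, 0.325 and 0.322 in the samples labelled wild type and 1.26, 1.01 and 1.11 in those labelled knockout. That is a mean of 0.356 ± 0.0568 against 1.13 ± 0.124 (SD, n = 3), with no overlap and a ratio of geometric means of 3.18. The pro-survival sum was the larger in all 3 samples labelled wild type and the effector sum the larger in all 3 labelled knockout. The tables were made separately, and no test was made across them.

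BH3-only genes over pro-survival genes gave 0.112 and 0.115 against 0.174 and 0.113 at day 7, where the first *Amh-Rnf20*-/- sample alone stood above. In adult testis the ratio was 0.0556, 0.0475 and 0.0643 against 0.153, 0.155 and 0.178, with a ratio of geometric means of 2.92 and no overlap. *Bax* over *Bcl2l1*, an effector and the restraint it binds, was 0.452, 0.442 and 0.293 against 3.999, 2.49 and 2.58 in adult testis, with a ratio of geometric means of 7.60. At day 7 *Bax* over *Bcl2* was 51.5 and 53.01 in *Rnf20* Flox/Flox and 61.5 and 67.7 in *Amh-Rnf20*-/- cells, higher in both of the latter, while *Bax* over *Bcl2l1* and over *Mcl1* overlapped. With the first sample labelled knockout left out, the log2 difference of effectors over pro-survival genes was 1.58, against 1.67 with it.

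The composition of each role also differed in adult testis. *Bcl2l1* made up 46.7% ± 6.22 of the pro-survival FPKM in the samples labelled wild type and 22.2% ± 2.75 in those labelled knockout (SD, n = 3). *Mcl1* held 34.4% ± 3.24 against 45.3% ± 3.504, and *Mcl1* over *Bcl2l1* was 0.742 against 2.08, without overlap. The share of *Bcl2l2* was 18.8% ± 8.73 against 31.2% ± 2.27, also without overlap. Among the effectors the share of *Bak1* was 34.1% ± 2.48 against 15.9% ± 1.31, and that of *Bok* 14.6% ± 4.21 against 26.1% ± 2.14. *Bax* held 51.3% ± 5.56 against 58.0% ± 2.27. Among the BH3-only genes *Bcl2l11* held 35.2% ± 2.19 against 50.3% ± 9.75, and *Bid* 38.0% ± 5.17 against 25.7% ± 4.99. At day 7 *Bok* over *Bax* was 0.655 and 0.572 in *Rnf20* Flox/Flox and 0.296 and 0.537 in *Amh-Rnf20*-/- cells. *Bcl2l11* over *Bid* was 0.331 and 0.276 against 0.185 and 0.225, likewise without overlap. The *Bcl2l11* share of the BH3-only FPKM (15.3% ± 0.976 against 11.5% ± 1.40, SD, n = 2) and the *Bcl2l2* share of the pro-survival FPKM (20.2% ± 0.176 against 17.1% ± 3.06) were also lower in both *Amh-Rnf20*-/- samples, as was the *Bok* share of the effectors (30.2% against 22.7%). Higher in both were the shares of *Bcl2l1* (34.2% against 36.3%), *Mcl1* (43.8% against 44.9%) and *Bid* (50.7% against 56.1%). These shares were described without a test.

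**Figure D3:**
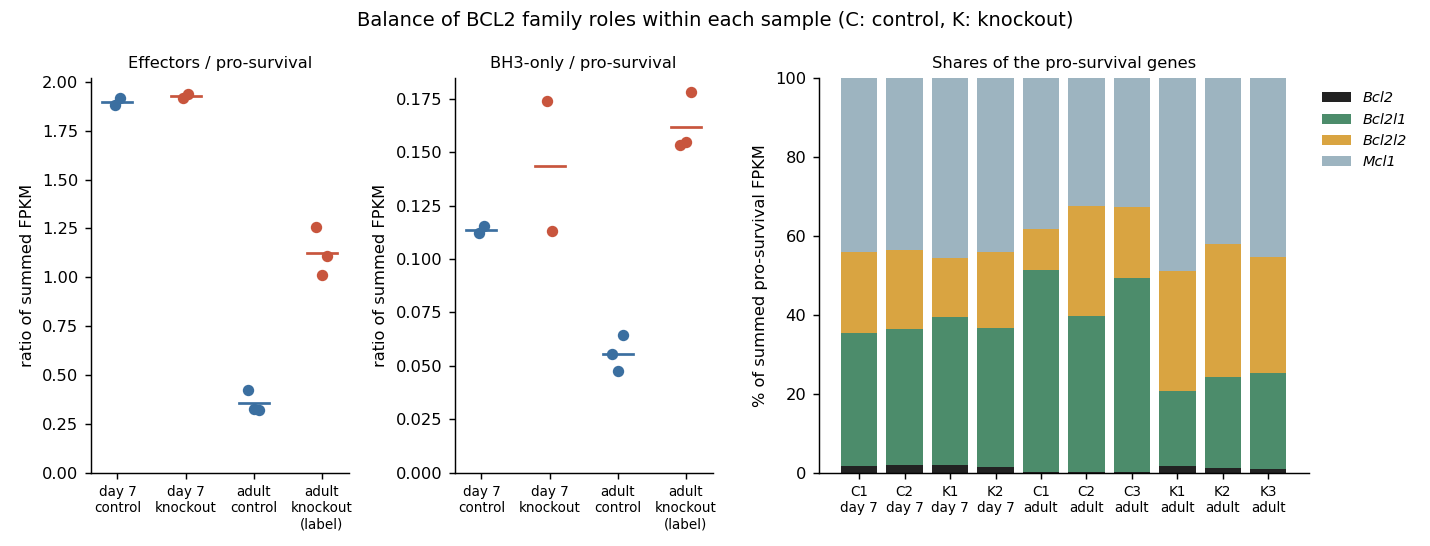
Left and middle, ratio of summed FPKM of effector or BH3-only genes to the 4 pro-survival genes in each sample, with group means as bars. Right, share of each pro-survival gene in their summed FPKM per sample (C, control; K, knockout; numbers are replicates). The adult ratios of effectors sit at 0.322 to 0.421 in the samples labelled wild type and at 1.01 to 1.26 in those labelled knockout, and the *Bcl2l1* share is lower in all 3 of the latter.

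Over all 10 samples, with log2(FPKM + 0.1) centred within each table, 8 members followed *Bcl2* with Pearson's r between 0.82 and 0.99, while *Bcl2l1* had an r of −0.56. The genes most like *Bcl2* among 12377 were *Slc25a16*, *Esrp2* and *C1galt1c1* (r = 0.999 for each), and those most like *Bax* were *Pfn1*, *Dusp11* and *Tor1a* (r = 0.998 for each). The 10 points fall into 4 groups, of which the adult ones lie farthest apart. Likeness was common: 6171 of the 12377 genes had an r above 0.9 with *Bcl2* and 6240 with *Bax*.

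Genes around the family gave 0 calls at day 7 in each list, as over all genes (edgeR). In adult testis, 9 of 13 tested other BCL2 family genes reached 0.5 FPKM in both groups, of which 3 were called higher and 5 lower, with a median log2FC of −0.95. The other 4 (*Bcl2a1a*, *Bcl2a1b*, *Bcl2a1d* and *Bmf*) passed the filter only through the samples labelled knockout, and with them the median was 0.95. *Bcl2l14*, a BCL2-related gene known from testis, had a mean FPKM of 256 ± 27.6 in the samples labelled wild type and of 1.67 ± 1.43 in those labelled knockout, a log2FC of −8.16 (adjusted p = 0.00152). *Bcl2l15* (−2.47) and *Bcl2l12* (−1.98) were the next lowest. The most raised were *Bcl2a1d* (4.10) and *Bcl2a1b* (3.85), of these 4, pro-survival genes of blood cells whose near-identical copies make the split of reads between them uncertain, and *Pmaip1* (3.47), which encodes the BH3-only protein NOXA. *Pmaip1* varied widely, with FPKM of 0.91, 0.69 and 0.67 in the samples labelled wild type and of 1.89, 14.6 and 30.52 in those labelled knockout. *Bcl2l10* was listed at 0 in both *Rnf20* Flox/Flox samples.

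Downstream, 9 of the 13 genes of the mitochondrial death pathway that reached 0.5 FPKM in both adult groups were called higher and 4 lower, with a median of 1.85. *Apaf1* passed only through the samples labelled knockout. *Xiap*, a caspase inhibitor, rose by 3.501 on the log2 scale, from a mean FPKM of 0.753 to 15.5. *Endog*, a mitochondrial nuclease, rose by 3.20. *Cyct*, the testis form of cytochrome c, fell by 5.03, from a mean FPKM of 236 to 13.5. *Diablo*, whose product antagonises XIAP, fell by 2.84 and *Vdac2*, a channel of the outer membrane that binds BAK1, by 1.84. The 4 lower genes were abundant in the testes labelled wild type, with *Vdac2* at 375 and *Diablo* at 204.

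Of 13 tested regulators of the family, 7 were called higher and 4 lower, with a median of 0.92. *Bcap31* (2.35), *Hif1a* (2.18) and *Foxo3* (1.82), which encodes a factor that can switch on *Bcl2l11* and *Bbc3*, rose most. *Bag6* (−2.99), *Bag1* (−2.11), a partner of BCL2, and *Mdm2* (−1.89), the ligase for p53, fell most. *Trp73* was listed at 0 in both *Rnf20* Flox/Flox samples. Of 13 p53 response genes that reached 0.5 FPKM in both groups 10 were called higher and 3 lower, with a median of 2.17. *Fas* (3.92) and *Btg2* (3.60) rose most, followed by *Eda2r* (3.19), which passed the filter only through the samples labelled knockout, and *Tnfrsf10b* (−1.99), *Mdm2* and *Zmat3* (−0.63) fell. These counts stand beside the 37.8% and 41.0% of the 13515 genes given above.

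**Figure D4:**
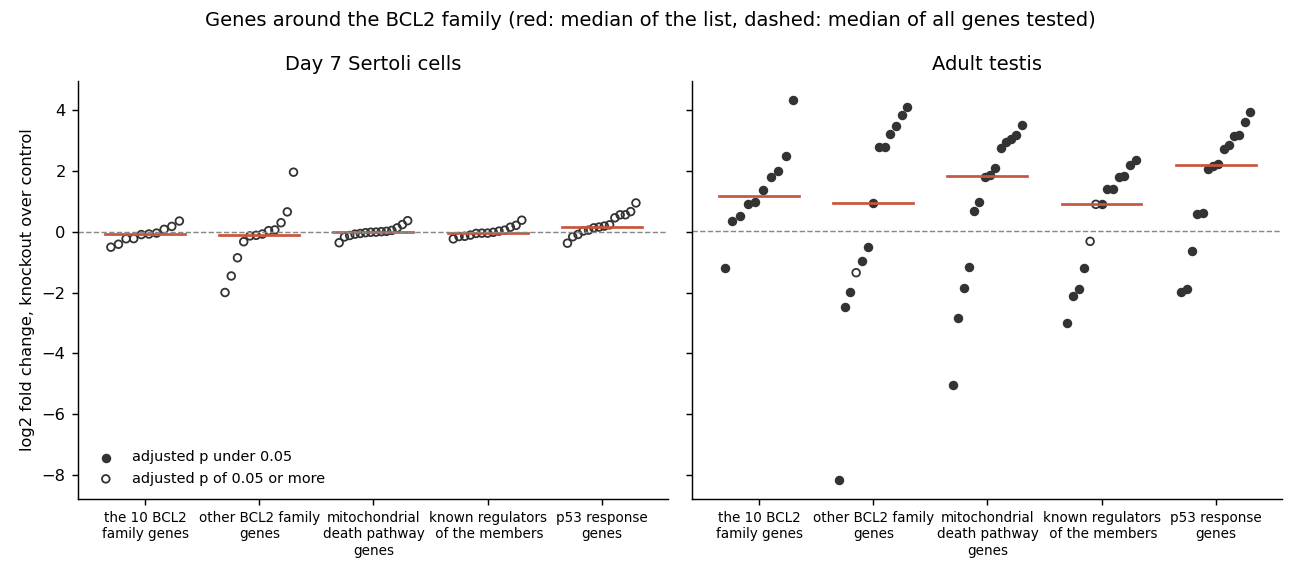
Log2 fold change of each gene in the 10 BCL2 family genes and 4 surrounding lists, TMM-scaled edgeR fits, day 7 at left and adult testis at right. Filled points have an adjusted p under 0.05, open points do not, red bars are medians of the list and the dashed line is the median of all genes. Day 7 has open points only, and adult medians over all tested genes of a list, those that passed the filter through 1 group included, lie between 0.92 and 2.20 with members on both sides of 0 in each list.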

How the data were processed

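RNA was enriched with oligo(dT) and sequenced on the BGISEQ platform, in 4 Sertoli cell and 6 adult testis samples. The authors used HISAT against GRCm38.p6, Bowtie2 against reference genes and RSEM for FPKM. Tool versions and whether strand was used are not given in the sources used here. Each deposited table gives unscaled estimated counts, FPKM (corrected for length and depth) and TPM per sample. The TPM that the authors deposited were not used. For adult testis the same processing is assumed from the column names, and 20 columns without a name or value were left out. A growth protocol in the labels speaks of adult tissue also for the Sertoli cells, whose titles say day 7, and the titles were followed. The study's methods give 3 individuals in each day 7 group, whereas the series lists 2 samples in each, and both were used.

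Groups followed the labels. Counts were rounded and each table was fitted on its own with edgeR 4.0.16 (quasi-likelihood test, TMM scaling, Benjamini-Hochberg adjustment over all genes) in R 4.3.3. Tests covered 12880 (day 7) and 15919 (adult) genes, those reaching 0.5 FPKM in 2 or 3 samples. Adult counts of the members and of the lists around them leave out genes under 0.5 FPKM in every sample of a group, except where stated. This choice was made after seeing the data, and counts of cell type markers do not follow it. The SE was the log2FC over the square root of F. The fits were tested on simulated data. Depth was 17477268 to 17705347 counts at day 7 and 15431912 to 16574144 in adult testis; intervals cover counting error only. TMM factors were 0.984 to 1.02 at day 7, and in adult testis 0.711 to 0.761 (labelled wild type) and 1.27 to 1.42 (labelled knockout). Alternatives were limma 3.58.1, DESeq2 1.42.0, other scalings and filters, a replicate block and each sample left out.

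The members, the lists and the markers were chosen with earlier results of these data known. Named genes are the 10 members, *Rnf20* and, per list, table and direction, at most 3 with the largest called change, plus genes at 0 in a whole group. A gene under this rule is not reported here. Motifs were matched by letters in RefSeq promoter windows on GRCm38.p6, and overlaps of genes were read from RefSeq gene coordinates.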

Additional observations from a re-analysis of the deposited data

Results flagged for a closer look

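For 5 genes every sample of the knockout group moved one way at day 7 and the opposite way in adult testis, and this difference between the tables was not tested, since they were made separately and hold different tissues. The same opposite move, lower at day 7 and higher in adult testis, was seen in 1435 of the 12378 genes tested in both tables (11.6%), and the reverse in 825 (6.67%); *Bcl2* passed the adult filter only through the samples labelled knockout. On the TMM-scaled log2 scale the day 7 and adult differences were −0.23 and 4.33 for *Bcl2*, −0.41 and 0.92 for *Bcl2l2*, −0.095 and 0.36 for *Mcl1*, −0.51 and 2.48 for *Bok*, and −0.23 and 2.01 for *Bcl2l11*. No day 7 value among them passed an adjusted p of 0.05 (edgeR), and the adult values rest on the labels.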

How the results depend on the processing

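With 2 samples per group at day 7 and with adult testis tissue whose cell markers differ between groups, the spread between samples and the choice of scale limit these results. Depth was not varied, and *Bcl2* had no value in adult testis when a mean FPKM of at least 1 was asked. Of the values of single members and *Rnf20* over the alternatives, 120 at day 7 and 131 in adult testis kept direction and call, 27 adult values lost and 3 gained the call, 9 day 7 values gained it, and 3 changed sign at each age. The causes were not tested.

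At day 7, leaving out 1 sample moved members called from 0 to 3 higher and from 0 to 3 lower, and all genes called from 0 to 2711 higher and from 0 to 2425 lower; DESeq2 gave 388 and 193. The differences ranged from −0.035 to 0.18 for *Bax*, −0.28 to 0.10 for *Bak1* and −0.13 to 0.42 for *Bbc3*. In adult testis, scaling to Sertoli cell markers left 2562 genes called higher and 1 member, *Bcl2*, which passed the filter only through the samples labelled knockout, so that 0 of the other 9 were called. Members called lower were 0 under that scaling, total counts and limma with either pseudocount (0.1 or 1), where 4627 to 4971 of 15919 genes were called lower. The study's thresholds gave 4 members, *Bcl2* included, and 3661 genes higher and 1 member and 3773 genes lower. With total counts they gave 7 members higher, *Bcl2* included, and 0 lower, with 5833 and 2253 of all genes. With limma 6 members, *Bcl2* included, were higher and 0 lower under either pseudocount. On the Sertoli cell scale 0 members passed on either side, with 113 genes higher and 2737 lower. *Rnf20* was called higher with total counts (0.97, adjusted p = 0.0168) and limma (0.97 and 0.84, adjusted p = 0.0152 and 0.0123), and turned to −0.075 with median-ratio scaling and DESeq2 and to −0.038 on the Sertoli cell scale.

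The log2 difference of effectors over pro-survival genes at day 7 (0.02) was −0.039 from counts and 0.051 without *Mcl1*, and in adult testis (1.67) it was 1.39 and 1.93. That of BH3-only genes was 1.81 without *Mcl1* in adult testis, and from −0.0058 to 0.61 at day 7 with 1 sample left out. Same-numbered samples showed little shared deviation (r = 0.03 at day 7, 0.0062 to 0.027 in adult testis), and the main fits did not pair them. With 2 samples per group, pairs at day 7 can differ in r only by sign. Whether samples were paired by origin cannot be decided from these values. With a replicate block, 7 adult members, *Bcl2* included, were called higher and 1 lower (6061 and 6148 of all genes), without *Mcl1* (adjusted p = 0.0923) and *Bid* (adjusted p = 0.0559, edgeR), and 0 at day 7.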
